A study of Arabidopsis thaliana with 39 samples.

Results

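The genes described here are the 369 nuclear genes of Arabidopsis thaliana that the TAIR10.1/Araport11 annotation types as snoRNA (287 genes) or snRNA (82 genes), out of 37184 genes counted. They were chosen by annotated type alone. The study used 39 small RNA libraries from whole plants, with 3 libraries in each of 13 groups, to ask which mutants of RNA maturation and decay gain small RNAs on genes. Set 1 held 14-day-old seedlings on MS medium of lsm1a lsm1b (both genes for the LSM1 subunit of the cytoplasmic decapping activator), ncb-4 (coilin, the scaffold protein of Cajal bodies), upf1-5 and upf3-1 (nonsense-mediated decay) and the wild type Col-0 (1). Set 2 held seedlings of the same age and medium of ahg2-1 (the poly(A)-specific ribonuclease PARN), ccr4a (a deadenylase), pab2 pab4 (poly(A)-binding proteins), fy-2 and rsr1-2 (mRNA 3′ end formation) and Col-0 (2). Set 3 held 21-day-old soil-grown cstf64-2 plants (a cleavage stimulation factor subunit), picked as homozygotes by their appearance, and Col-0 (3). Per the study Col-0 (3) grew together with cstf64-2, but its sequencing results belong to an earlier data submission. All plants grew in long days. The study describes fy-2 and upf1-5 as hypomorphic, so some function of those genes may remain, and rsr1-2 as a knock-out, and most other lines carry T-DNA insertions.

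Small nucleolar RNAs guide the chemical modification of ribosomal RNA. Box C/D snoRNAs carry a C box near the 5′ end and a D box near the 3′ end and direct 2′-O-methylation, while box H/ACA snoRNAs end in an ACA box and direct pseudouridylation. In plants many snoRNA genes lie in clusters that are transcribed together and cut apart. Spliceosomal snRNAs form the cores of the splicing complexes: U1 pairs with the 5′ splice site, U2 with the branch point, U4 holds U6 until activation, U5 aligns the exons, and U12 takes the place of U2 on a rare class of introns. Cajal bodies, which need coilin, are sites where both classes of particle mature. U6 differs from the other major snRNAs in that RNA polymerase III makes it and that an LSM ring with LSM8 in place of LSM1 binds its 3′ end. In human cells PARN trims the 3′ ends of H/ACA snoRNAs. For Arabidopsis AHG2 the study cites a function in mitochondria, and says that data on its place in the cell disagree with this.

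What was counted is not the mature RNA but reads of at least 15 bases from a size-selected small RNA library, so a level below is the amount of short fragments, which depends on the parent RNA and on how it is cut or decays. In bulk samples, moreover, fewer cells of a type and less RNA per cell cannot be told apart. snoRNA genes took 6193 to 30630 reads per library, or 0.165 to 0.574% of the reads on genes, and snRNA genes took 1403 to 8284 reads, or 0.042 to 0.132%. Ribosomal RNA genes took 18.0 to 58.3%.

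Sequence and position described most snoRNA members. Of the 287 snoRNA genes, 120 (41.8%) held a C box TGATGA in the first 20 bases together with a D box CTGA in the last 20, against 1 (0.348%) of windows of the same length 200 bases downstream. An ACA starting about 6 bases before the 3′ end was present in 68 (23.7%), against 24 (8.36%) of those windows, and 100 genes held neither. On the same strand, 214 (74.6%) lay within 500 bases of another member, 49 lay in an intron of a host gene and 50 in a host exon. Among the 82 snRNA genes 0 had the C and D boxes and 4 had the ACA, against 11 windows. The median length was 92 bases for snoRNA genes and 153 for snRNA genes.

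The sequences below, from the TAIR10.1 genome and written 5′ to 3′ on the gene strand, belong to the members on which the results turn. In the box C/D snoRNAs the capitals mark the C and D boxes.
AtsnoR29-1, AT5G07725, chr5:20795723-20795828, plus strand: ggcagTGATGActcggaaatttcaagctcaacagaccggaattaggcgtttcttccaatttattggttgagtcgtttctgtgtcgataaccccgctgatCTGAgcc
AtsnoR23-1, AT3G04165, chr3:7682639-7682749, plus strand: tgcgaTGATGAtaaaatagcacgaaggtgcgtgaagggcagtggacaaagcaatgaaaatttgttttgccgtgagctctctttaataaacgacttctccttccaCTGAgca
AtsnoR23-2, AT4G06250, chr4:8460056-8460149, plus strand: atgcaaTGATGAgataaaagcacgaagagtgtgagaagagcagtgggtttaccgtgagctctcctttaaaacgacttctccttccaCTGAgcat
AtsnoR43.1, AT1G04527, chr1:2111064-2111147, minus strand: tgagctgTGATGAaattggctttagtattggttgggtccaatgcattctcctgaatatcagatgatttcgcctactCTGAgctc
snoR119, AT5G00760, chr5:146303-146377, minus strand: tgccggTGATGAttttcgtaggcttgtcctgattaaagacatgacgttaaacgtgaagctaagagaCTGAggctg
In 2 snoRNAs with an ACA box near the 3′ end, the capitals mark that box.
AtsnoR82, AT5G07095, chr5:19624548-19624687, plus strand: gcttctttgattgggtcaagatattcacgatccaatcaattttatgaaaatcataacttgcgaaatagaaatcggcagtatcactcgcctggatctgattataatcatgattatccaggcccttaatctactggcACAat
AtsnoR81, AT1G07957, chr1:20260311-20260398, plus strand: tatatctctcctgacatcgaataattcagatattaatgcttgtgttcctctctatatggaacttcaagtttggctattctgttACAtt
U12 and the U1 genes U1.5 and U1.10 close the set. The capitals mark GTAAGGA in U12 and CTTACCTG in U1, the 5′ splice site pairing stretch of U1, each searched on the gene strand only.
U12, AT1G61275, chr1:22603121-22603295, plus strand: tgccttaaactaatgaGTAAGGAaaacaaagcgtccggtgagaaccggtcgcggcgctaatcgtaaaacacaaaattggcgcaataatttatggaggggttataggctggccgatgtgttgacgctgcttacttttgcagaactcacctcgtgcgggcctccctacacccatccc
U1.5, AT1G08115, chr1:2538074-2538238, minus strand: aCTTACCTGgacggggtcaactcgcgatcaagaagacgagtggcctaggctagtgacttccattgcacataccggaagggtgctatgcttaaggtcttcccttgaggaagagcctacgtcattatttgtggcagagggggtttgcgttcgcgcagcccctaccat
U1.10, AT1G04907, chr1:4007237-4007396, minus strand: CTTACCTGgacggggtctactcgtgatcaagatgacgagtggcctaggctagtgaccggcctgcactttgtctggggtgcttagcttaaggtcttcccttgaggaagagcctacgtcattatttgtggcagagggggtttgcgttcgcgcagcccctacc
CTTACCTG was present in 5 of 14 U1 genes, which held 23536 of the 23589 reads on U1 genes, and in 1 of 82 windows (1.22%). GTAAGGA was present in 1 of 2 U12 genes, with 12132 of 12140 reads, and in 0 of 82 windows.

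Many annotated members had next to no reads. Over the 39 libraries 69 of the 287 snoRNA genes had 0 reads and 79 had 10 or fewer, and 41 of the 82 snRNA genes had 0 and 49 had 10 or fewer. This followed position: of the 22 snoRNA genes that lay fully in exons of a gene on the other strand all 22 had 10 reads or fewer, as did 45 of 59 fully in exons on the same strand, but only 7 of 184 outside other exons (median 926 reads). The study counted both with and without regard to strand, and which of these the files hold is not given in the sources used here. For the snRNA families U1, U2, U4, U5 and U6, 38 of 76 annotated genes held the 20-base stretch most shared in their family, with 178716 reads, and the other 38 had 125 reads in all. Reads that mapped to as many as 10 places were kept, and near-identical genes had nearly the same counts in sets 1 and 2, where they repeat 1 measurement. In set 3 they did not: U6-1 had 29, 21 and 36 reads in Col-0 (3), where U6.4 had 255, 214 and 216. By shared 20-base stretches (at least 50%), the snoRNA genes formed 270 groups and the snRNA genes 56.

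The level of fold changes depends on the scaling and is read against the bulk of genes throughout. Levels are RPM, reads per 1000000 reads on genes after TMM scaling, which lines libraries up on the bulk of genes and so places the median gene near 0. A gene is called where the edgeR quasi-likelihood test gives an adjusted p under 0.05 and the log2 fold change is over 1 in size. Shares of all genes called are given for this test with TMM and all libraries only. Counts of calls under other settings show how stable the calls are and are not set against all genes. With the library sizes stated by the study in place of TMM, the median log2 fold change of all genes tested moved to 0.54 in ncb-4, 0.66 in lsm1a lsm1b, 0.38 in upf1-5, 0.59 in upf3-1, 0.21 in ahg2-1, 0.24 in ccr4a, 0.39 in pab2 pab4, 0.22 in fy-2, 0.29 in rsr1-2 and 0.24 in cstf64-2. The sizes for ccr4a come from a row that the study's library table names ccr4b. A change of library sizes shifts all genes of a comparison nearly alike, so the distance of the snoRNA genes from that median does not test the scaling. A "fall" below is thus a fall relative to other genes, and under the stated library sizes the snoRNA median was still below 0 in ncb-4 (-0.21) and ahg2-1 (-0.56). The same median is not given here for the other mutants, so this does not set ncb-4 and ahg2-1 apart from them.

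**Figure D1:**
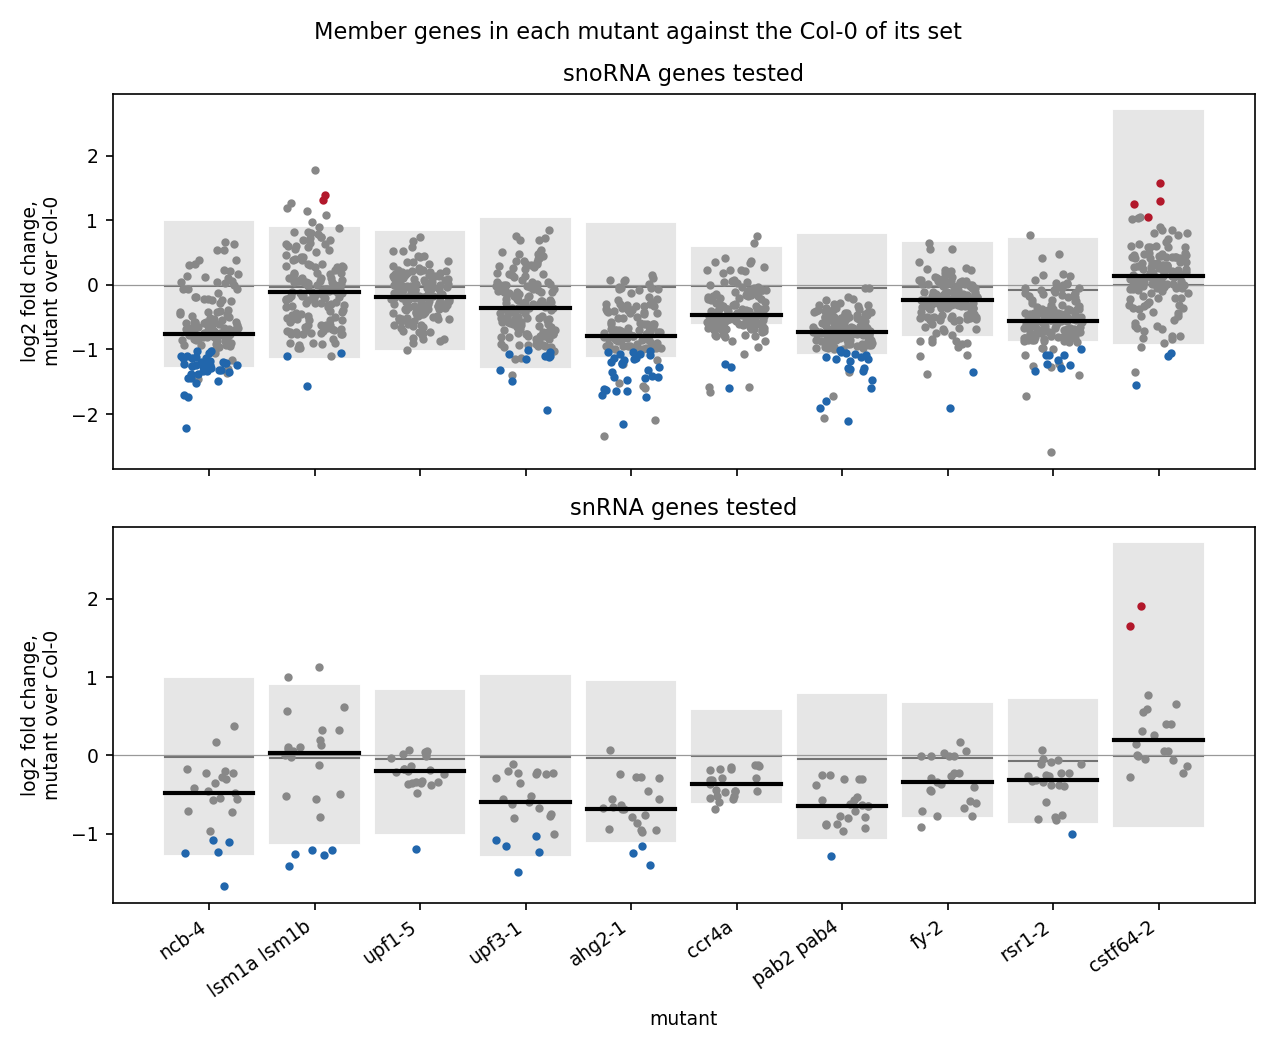
Log2 fold change (mutant over Col-0, vertical axis) of every snoRNA gene (upper panel) and snRNA gene (lower panel) tested, by mutant. Each point is a gene, blue where called lower, red where called higher and grey where not called. The black bar is the class median, the grey box the 5th to 95th percentile of all genes tested with their median. The snoRNA medians are lowest in ahg2-1 (-0.79), ncb-4 (-0.75) and pab2 pab4 (-0.73).

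In ncb-4, the coilin mutant, small RNAs on snoRNA genes were lower than in Col-0 (1). Of 144 snoRNA genes tested, 41 (28.5%) were called lower and 0 higher, against 7.28% of all 9432 genes tested called lower and 3.31% higher, and 125 of 144 lay below 0. The median was -0.75 on the log2 scale, against -0.02 for all genes. DESeq2 called 32 lower and 0 higher. The 41 genes made 38 sequence groups. tRNA genes did not move this way: of 286 tested, 10 were called higher and 1 lower, with a median of -0.13. With the stated library sizes the snoRNA calls became 2 lower and 4 higher, AtsnoR134-3 and snoR135 being the 2 that remained. Leaving out 1 library at a time gave 28 to 54 calls, 28 without Col-0 (1) replicate 1, whose snoRNA genes stood a median of 0.48 (log2) above those of the other Col-0 (1) libraries, and 23 of the 41 were called under every leave-out.

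AtsnoR134-3 (AT4G04485) showed the largest fall. It had 1.04, 0.894 and 0.7 RPM in ncb-4, against 4.66, 3.99 and 3.56 RPM in Col-0 (1), and the groups did not overlap (log2 fold change -2.21, SE 0.40, edgeR quasi-likelihood adjusted p 8.6e-05). With 8, 7 and 5 reads in the ncb-4 libraries it was among the sparsest. AtsnoR82 (AT5G07095), shown above with its ACA box, had 2.2, 1.79 and 1.82 RPM in ncb-4, against 6.63, 4.75 and 5.06 RPM in Col-0 (1) (-1.52, SE 0.32, adjusted p 0.00052). Both were called lower under every leave-out.

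AtU33b (AT1G06273) and AtU61 (AT2G08725) are plant relatives of box C/D snoRNAs named in animals. AtU33b had 25.4, 23.5 and 30.4 RPM in ncb-4, against 58.1, 65 and 74.2 RPM in Col-0 (1) (-1.34, SE 0.13, adjusted p 1.5e-09). AtU61 had 67.8, 59.6 and 49 RPM in ncb-4, against 217, 111 and 141 RPM in Col-0 (1) (-1.44, SE 0.28, adjusted p 0.014), and it lost its call without Col-0 (1) replicate 3. AT4G39363, at 53.9, 47.5 and 44.7 RPM in ncb-4 against 120, 127 and 112 RPM in Col-0 (1), had the tightest groups of the named genes (-1.32, SE 0.12, adjusted p 5e-10).

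AtsnoR29-1 and AtsnoR23-1, both with the C and D boxes printed above, also fell. AtsnoR29-1 had 38.9, 31.2 and 32.6 RPM in ncb-4, against 117, 63.8 and 83 RPM in Col-0 (1) (-1.39, SE 0.20, adjusted p 0.00058). AtsnoR23-1 had 91.1, 69.1 and 59.2 RPM in ncb-4, against 220, 172 and 148 RPM in Col-0 (1) (-1.32, SE 0.17, adjusted p 9.1e-06). The AtsnoR23 genes need the set kept in view, since they also differed between the wild types: AtsnoR23-1 had 43.2, 60.5 and 48.8 RPM in Col-0 (2), and with Col-0 (2) as reference its log2 fold change in ncb-4 was 0.17. The remaining named snoRNAs of this mutant were snoR135 (-1.70), AtsnoR68 (-1.44), snoR145 (-1.39), AT2G43137 (-1.34) and AT2G35382 (-1.34), with adjusted p from 5.1e-05 to 0.011. AtsnoR68, snoR145 and snoR135 lie fully in exons of other annotated genes on the same strand, so their reads cannot be assigned to them alone. Of the 5, snoR135 lost its call without Col-0 (1) replicate 1, and snoR145 without Col-0 (1) replicate 1 or ncb-4 replicate 2.

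**Figure D2:**
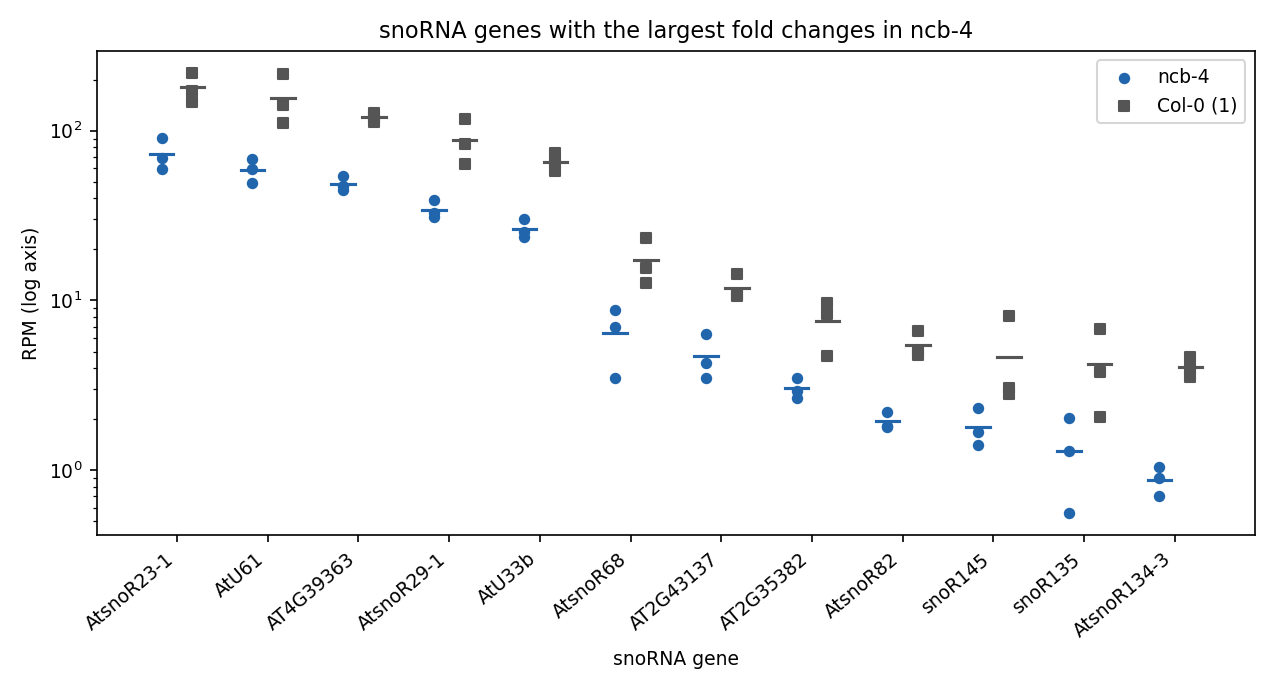
Read level (RPM, log axis) on the 12 snoRNA genes with the largest fold changes in ncb-4 among those called and not overlapping, for the 3 ncb-4 libraries (circles) and the 3 Col-0 (1) libraries (squares). Bars are group means. In every gene shown the ncb-4 libraries lie below those of Col-0 (1), for AtU33b at 23.5 to 30.4 against 58.1 to 74.2 RPM.

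Falls in ncb-4 were spread over the kinds of snoRNA gene. C and D boxes were present in 23 of the 41 called (56.1%) and in 78 of the 144 tested (54.2%), and the ACA box in 12.2% of those called and 12.5% of those tested. The median log2 fold change was -0.75 with C and D boxes and -0.72 with an ACA box. Clustered genes made up 85.4% of both, and genes in a host intron 24.4% of those called and 17.4% of those tested. Calls fell in 23 of 59 clusters that had tested members. These clusters were formed over snoRNA and snRNA genes together, so a few of the 59 hold snRNA genes. Of the 41 clusters with at least 2 tested members, 2 had every tested member called, 3 of 3 each. These clusters were picked out after their values were seen. The first lies in AT1G29465 on chromosome 1, where AtsnoR4b (-1.74, with overlapping groups), AtU33b (-1.34) and AtU51b (-1.14) were lower. The second lies in AT2G43110 on chromosome 2, where AT2G43137 (-1.34), AT2G43138 (-1.24) and AT2G43139 (-1.25) were lower. AT2G43138 and AT2G43139 had nearly the same counts in every library.

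U3 snoRNA, needed for the early cuts that release 18S rRNA, was counted on U3B (AT5G53902) and U3D (AT5G54075), which share sequence. U3B had 347, 342 and 389 RPM in ncb-4, against 690, 750 and 776 RPM in Col-0 (1) (-1.06, SE 0.12, adjusted p 3.3e-08), and U3D had 11, 12.9 and 9.38 RPM in ncb-4, against 29.4, 25.6 and 22.1 RPM in Col-0 (1) (-1.23, SE 0.16, adjusted p 5.9e-07). Both passed the threshold, and the groups did not overlap. Parts of both genes lie in exons of a gene on the other strand, so without the strand setting some of these reads may belong there. In ahg2-1 U3D was lower (-1.04, adjusted p 9.7e-05), while U3B had 341, 419 and 406 RPM in ahg2-1, against 569, 425 and 491 RPM in Col-0 (2) (-0.37, adjusted p 0.2).

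Set against the other mutants of set 1 instead of Col-0 (1), a smaller share of snoRNA genes stood out in ncb-4. Of 162 tested, 7 were called lower and 0 higher (2% of all 11813 genes tested were called lower and 3.01% higher), with a median of -0.50. With the stated library sizes 8 were called, all 7 among them. The 7 were named after their values were seen. AtsnoR81, in an intron of the translation initiation factor gene EIF4A-2, had 1 read in each ncb-4 library, against 0.39 to 1.84 RPM (median 1.23) in the other mutants (-3.03, SE 0.71, adjusted p 0.0017); a count of 1 gives the size of this difference little precision. snoR125 (-1.89), AtsnoR59b (-1.60), snoR160 (-1.09), AtsnoR103 (-1.07), AtsnoR110-1 (-1.03) and AtsnoR82 (-1.01) followed. Of the 7, only AtsnoR81, at 1 read in each ncb-4 library, and AtsnoR82 did not overlap the other mutants' range. The share of all genes tested that did not overlap is not given here.

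In ahg2-1, the PARN mutant, snoRNA genes were also lower than in Col-0 (2). Of 140 snoRNA genes tested, 28 (20%) were called lower and 0 higher, against 5.22% of all 9371 genes tested called lower and 3.54% higher, and 134 of 140 lay below 0. The median was -0.79, against -0.03 for all genes. DESeq2 called 18 lower and 0 higher. The 28 genes were 28 sequence groups. tRNA genes had 8 calls higher and 0 lower of 286. With the stated library sizes 12 of the 28 were still called lower. Leaving out 1 library gave 17 (without Col-0 (2) replicate 2) to 48 calls (without Col-0 (2) replicate 1, whose snoRNA genes stood a median of 0.32 below the other Col-0 (2) libraries), and 12 were called under every leave-out.

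AtsnoR110-1 (AT1G06033), in an intron of AT1G26880, fell the most. It had 0.681, 0.56 and 1.09 RPM in ahg2-1, against 2.03, 5.18 and 3.31 RPM in Col-0 (2) (-2.15, SE 0.42, adjusted p 0.00029), from 6, 4 and 10 reads in the mutant libraries. snoR160 (AT1G09533) had 1.82, 2.24 and 2.29 RPM in ahg2-1, against 3.59, 6.91 and 6.26 RPM in Col-0 (2) (-1.43, SE 0.30, adjusted p 0.00059). Both were called lower in ahg2-1 under every leave-out and with the stated library sizes.

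AtsnoR43.1 (AT1G04527) was the best counted of the named snoRNAs of this mutant. It had 37.3, 33.2 and 36.3 RPM in ahg2-1, against 67.2, 111 and 104 RPM in Col-0 (2) (-1.42, SE 0.17, adjusted p 1.9e-07). snoR119 (AT5G00760), in an intron of AT5G01350, had 4.43, 5.6 and 4.58 RPM in ahg2-1, against 10.5, 16.3 and 12.2 RPM in Col-0 (2) (-1.44, SE 0.21, adjusted p 6.7e-06). Both carry the C and D boxes printed above, and both stayed called with the stated library sizes and in every leave-out.

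The other named snoRNAs of ahg2-1 were snoR85b (-1.73), AtsnoR12-1a (-1.64), snoR134 (-1.64), snoR123a (-1.63), AtsnoR65 (-1.61), AT3G13525 (-1.47), AtsnoR12-1b (-1.41) and SNOR77 (-1.34), with adjusted p from 0.00073 to 0.022. AtsnoR12-1b rests on 5 to 9 reads per ahg2-1 library and was called in 2 of 6 leave-outs. AtsnoR12-1a lost its call without Col-0 (2) replicate 3 or ahg2-1 replicate 3, and snoR134 without ahg2-1 replicate 3. Relative to the other mutants of set 2, 4 of 164 snoRNA genes were lower and 0 higher in ahg2-1 (1.93% of all 11994 genes tested were lower and 1.88% higher), with a median of -0.27. These 4, named after their values were seen, were AtsnoR110-1 (-1.72), snoR142 (-1.67), AtsnoR110-2a (-1.39) and snoR134 (-1.20), and all 4 were also called with the stated library sizes.

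**Figure D3:**
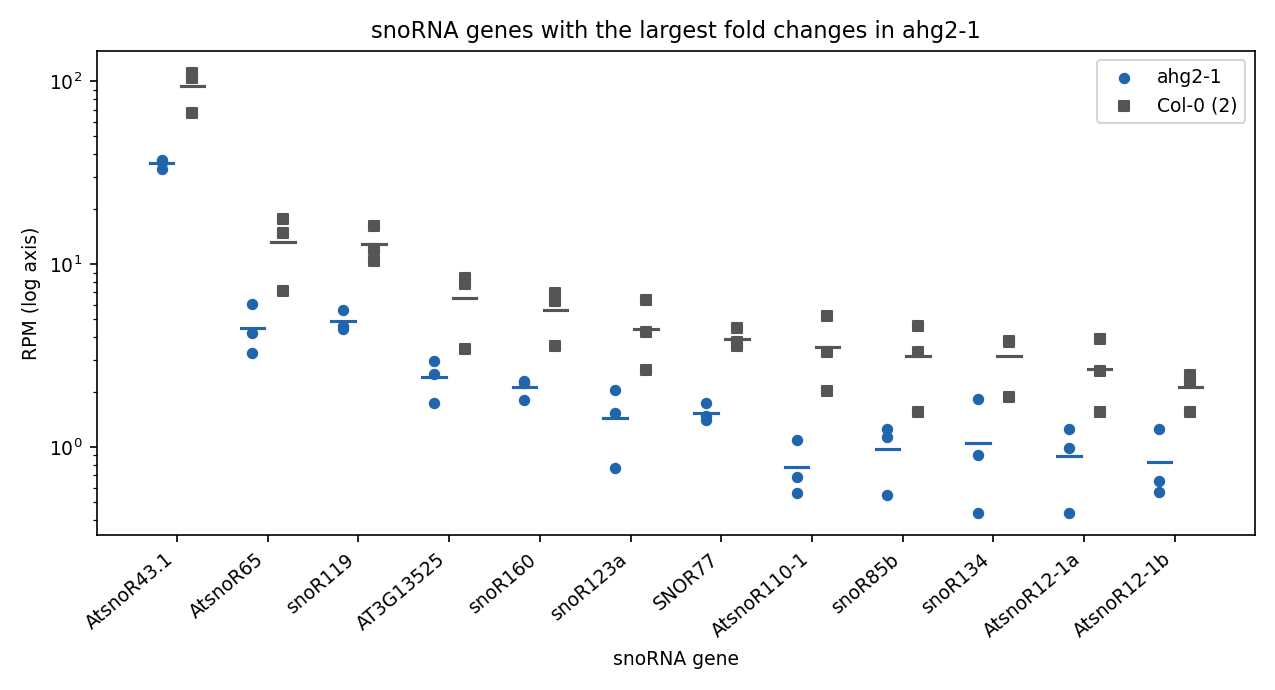
Read level (RPM, log axis) on the 12 snoRNA genes with the largest fold changes in ahg2-1 among those called and not overlapping, for the 3 ahg2-1 libraries (circles) and the 3 Col-0 (2) libraries (squares). Bars are group means. AtsnoR43.1, the most abundant shown, lies at 33.2 to 37.3 RPM in ahg2-1 and 67.2 to 111 RPM in Col-0 (2).

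By kind of snoRNA gene, C and D boxes were present in 42.9% of those called in ahg2-1 and 53.6% of those tested, and the ACA box in 17.9% and 13.6%. The median log2 fold change was -1.0 with an ACA box and -0.75 with C and D boxes. This difference was not tested. Calls fell in 19 of 58 clusters with tested members, again formed over snoRNA and snRNA genes together. Of the 35 clusters with at least 2 tested members, 0 were called whole. Of the 130 snoRNA genes tested in both ncb-4 and ahg2-1, which have different Col-0 libraries, 40 were called lower in ncb-4 (30.8%) and 26 in ahg2-1 (20%). The 9 called in both were 34.6% of those 26 and 22.5% of those 40, so the shared share was close to the share called among all 130. AtsnoR110-1, snoR160, snoR85b, snoR135 and U3D are among them. So are snoR140 and AtsnoR100a, ACA-box snoRNAs in introns of AT5G08180, the gene for NHP2, itself a core protein of H/ACA particles. snoR140 (named after its values were seen) had 2.61, 3.64 and 2.29 RPM in ahg2-1, against 3.74, 9.07 and 5.91 RPM in Col-0 (2) (-1.17, SE 0.30, adjusted p 0.0045), and 8.69, 7.53 and 4.2 RPM in ncb-4, against 20.8, 14.4 and 11.1 RPM in Col-0 (1) (-1.20, SE 0.26, adjusted p 0.0028).

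In lsm1a lsm1b snoRNA genes did not move as a class. Of 154 tested, 3 were called lower and 2 higher (5.43% of all 9558 genes tested were lower and 2.26% higher), with a median of -0.12, against -0.03 for all genes. Replicate 2 stood apart: its snoRNA genes lay a median of 0.95 (log2) above the other lsm1a lsm1b libraries and were highest there in 86 of 95. Without it 20 were called in either direction, and with the stated library sizes, which raise the median gene, 23 were higher and 0 lower. The shares of all genes called in these settings are not given here. AtsnoR78-2 (AT3G01145) was the firmest, with 7.59, 8.95 and 11.8 RPM in lsm1a lsm1b, against 5.2, 2.09 and 3.37 RPM in Col-0 (1) (1.39, SE 0.29, adjusted p 0.0013), called in every leave-out, though it lies fully in a same-strand exon of another gene. AtsnoR43.7 was higher (1.32, adjusted p 0.011) but was called in only 3 of 6 leave-outs. AtsnoR90b (-1.57), AtsnoR29-1 (-1.10) and AtsnoR65 (-1.05) were lower, with adjusted p from 0.0022 to 0.0055, and none of the 3 was called with the stated library sizes.

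The other mutants of sets 1 and 2 had 0 snoRNA genes called higher and 0 to 19 called lower. upf3-1 had 10 lower of 150 (median -0.36), no more than the background, since 7.69% of all genes tested were called lower and 4.37% higher. With the stated library sizes 12 were higher and 1 lower there, and AT1G03743 was the only call kept. Without Col-0 (1) replicate 3 upf3-1 had 24 calls. upf1-5 had 0 in edgeR and DESeq2 (18 of 150 at an unadjusted p under 0.05), where 3.83% of all genes tested were lower and 1.66% higher. ccr4a had 3 lower of 151 (median -0.46), where 0.185% of all genes were lower and 0.503% higher. In pab2 pab4 all 146 tested lay below 0, with a median of -0.73, and 19 were called lower, where 4.61% of all genes were lower and 1.79% higher. An ACA box was present in 36.8% of those 19 and in 13.7% of those tested. fy-2 had 2 lower of 151 (median -0.24), where 0.808% of all genes were lower and 0.556% higher, and rsr1-2 had 9 lower of 153 (median -0.56), where 1.55% were lower and 0.947% higher. DESeq2 called 8 in pab2 pab4 and 0 in fy-2. Single libraries moved these counts. Without Col-0 (2) replicate 1 ccr4a and fy-2 had 10 each, rsr1-2 had 21 and pab2 pab4 had 36. pab2 pab4 had 8 without its replicate 1 and 29 without its replicate 2, and rsr1-2 had 4 without its replicate 2 and 23 without its replicate 3. The set 2 mutants here share Col-0 (2) with ahg2-1, so a low or high value in a Col-0 (2) library enters all of them.

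Some snoRNAs were named in several mutants of set 2, each time against the same Col-0 (2) libraries. AtsnoR12-1a had 0.701, 1.37 and 0.33 RPM in pab2 pab4 (-1.79) and 0.35, 0.42 and 1.49 RPM in fy-2 (-1.91), against 1.56, 2.59 and 3.9 RPM in Col-0 (2). AtsnoR65 had 2.72, 4.32 and 3.97 RPM in pab2 pab4, against 7.18, 17.7 and 14.9 RPM in Col-0 (2) (-1.91, SE 0.30, adjusted p 0.00054). In pab2 pab4 snoR135 also fell (-2.10, adjusted p 0.00047). In ccr4a AtsnoR29-1 had 33.3, 46.5 and 41.4 RPM, against 81.7, 112 and 86.4 RPM in Col-0 (2) (-1.22, SE 0.15, adjusted p 7.1e-08), and held in every leave-out, while AtsnoR12-1a (-1.59) and AtsnoR65 (-1.26) held in 2 and 3 of 6. fy-2 also had snoR123a lower (-1.34). In rsr1-2 AT1G03746 was lower (-1.34, adjusted p 0.00016), with AtsnoR12-1b (-1.28) and AtsnoR12-1a (-1.22), held in 2 and 1 of 6 leave-outs. upf3-1 had AT1G03743 (-1.94), AT4G13245 (-1.32) and AtsnoR23-1 (-1.14) lower.

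In cstf64-2, grown in soil for 21 days, 4 snoRNA genes were called higher and 3 lower of 144 (13.5% of all 9207 genes tested were higher and 3.23% lower). snoR153 had 6.02, 10.5 and 8.74 RPM in cstf64-2, against 2.86, 2.46 and 3.04 RPM in Col-0 (3) (1.57, SE 0.42, adjusted p 0.0076). AtsnoR4b was higher too (1.29), and AtsnoR146 lower, at 6.02, 5.45 and 2.19 RPM in cstf64-2, against 10.5, 15.7 and 14.7 RPM in Col-0 (3) (-1.56, SE 0.37, adjusted p 0.0038). DESeq2 called 0 of the snoRNA genes higher here and 2 lower. Replicate 2 of cstf64-2 was highest in 120 of 138 snoRNA genes.

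Col-0 (1) and Col-0 (2) shared genotype, age and medium, so their difference gives the size of a change between sets. Between Col-0 (2) and Col-0 (1), 4 snoRNA genes were called higher and 5 lower of 149 (1.82% of all 8840 genes tested were higher and 1.38% lower). AtsnoR146 (-2.19), AT1G20015 (-1.78), AtsnoR23-1 (-1.46), AtsnoR23-2 (-1.37) and AtsnoR23-3 (-1.36) were lower in Col-0 (2), and AT2G20721 (1.41), AtsnoR43.7 (1.30), AT3G01316 (1.08) and AtsnoR1b (1.06) higher. Set and library preparation cannot be told apart here. With the Col-0 of the other set as reference, 11 of the 41 calls of ncb-4 and 14 of the 28 calls of ahg2-1 were kept.

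Summed over all snoRNA genes, the shares of reads per library need no fit and are not TMM-scaled. ncb-4 had 0.203 to 0.222% of the reads on genes and lsm1a lsm1b 0.284 to 0.433%, against 0.240 to 0.321% in Col-0 (1). ahg2-1 had 0.165 to 0.182%, against 0.198 to 0.263% in Col-0 (2). The libraries of ccr4a (0.176 to 0.197%), pab2 pab4 (0.171 to 0.195%) and rsr1-2 (0.168 to 0.196%) lay below those of Col-0 (2) as well, so ncb-4 and ahg2-1 were not alone in this. By level per length, AtsnoR34 (AT1G05247) was the most abundant snoRNA, at 87.8 ± 7.8 RPM in ncb-4, 47.9 ± 4.9 RPM in ahg2-1, 185 ± 7.8 RPM in Col-0 (1) and 85 ± 2.2 RPM in Col-0 (2) (SD, n = 3 each). It also lies fully in a same-strand exon of another gene. AtU61, AT3G47347, AtsnoR23-2 and AtsnoR23-3 were also among the 5 most abundant. All 5 were called lower in ncb-4, by -1.44 to -1.10, and not in ahg2-1, where their log2 fold changes were -0.95 to -0.60. These mutants have different references, so the contrast cannot be assigned to the mutants alone. The level of AtsnoR34 in ncb-4 was close to that in Col-0 (2), and AtsnoR23-2 and AtsnoR23-3 were called lower in Col-0 (2) than in Col-0 (1).

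**Figure D4:**
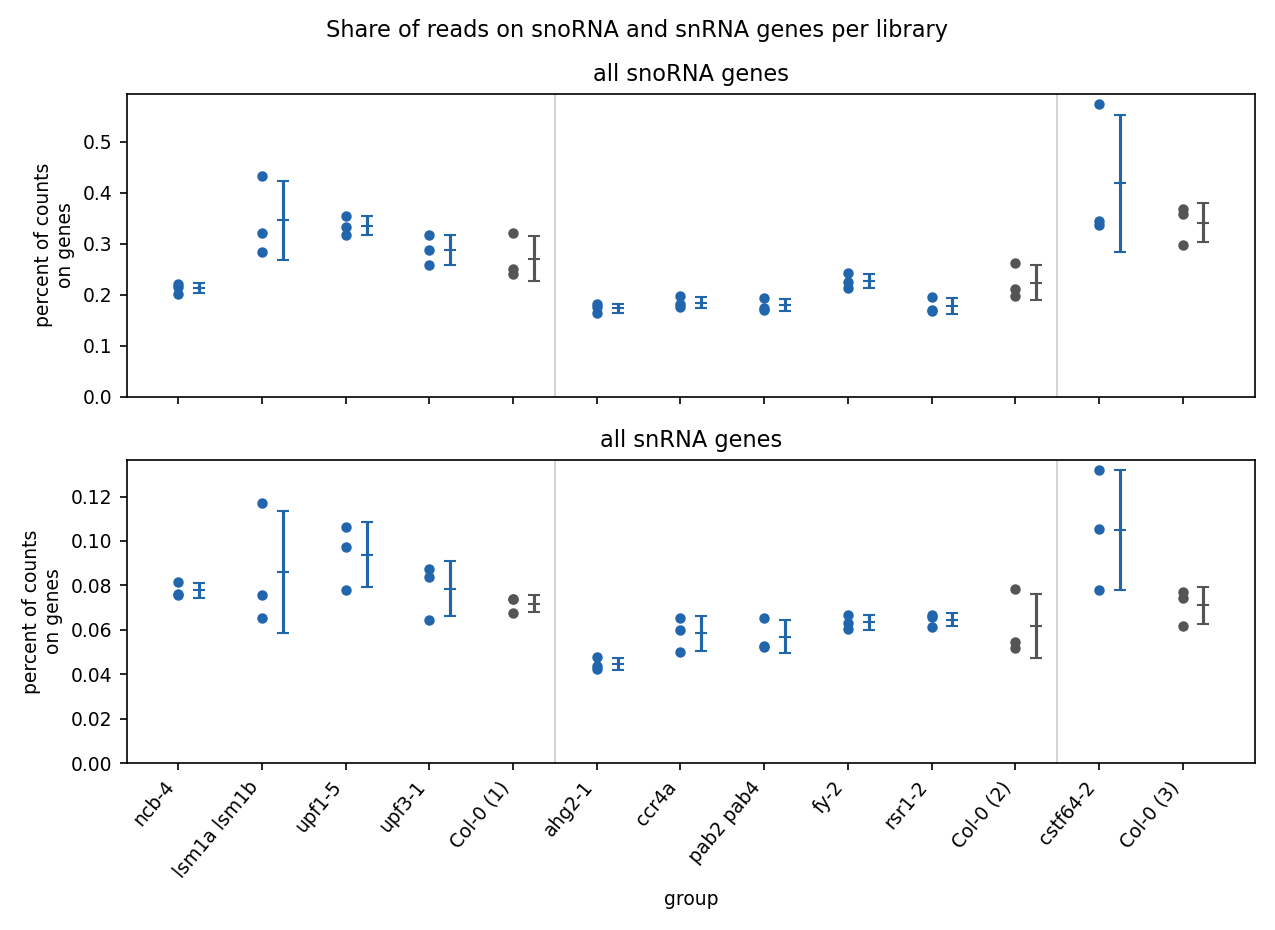
Share of the reads on genes (percent) on all snoRNA genes (upper panel) and all snRNA genes (lower panel), one point per library, with the mean and SD beside each group and sets divided by grey lines. In the snoRNA panel ncb-4 lies below Col-0 (1), and ahg2-1, ccr4a, pab2 pab4 and rsr1-2 lie below Col-0 (2). In the snRNA panel ahg2-1 lies at 0.042 to 0.048%, against 0.052 to 0.078% in Col-0 (2), and ncb-4 at 0.0755 to 0.0815%, above 0.0675 to 0.0740% in Col-0 (1). These shares are not TMM-scaled.

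Turning to snRNA genes, ncb-4 had 5 called lower and 0 higher of 23 tested (7.28% of all genes tested were lower), all of them U12 or U2. The sum over all snRNA genes, taken without TMM scaling, was 0.0755 to 0.0815% of the reads on genes in ncb-4, against 0.0675 to 0.0740% in Col-0 (1). This share is not on the scale of the calls, since TMM factors were 1.02 to 1.11 in ncb-4 and 0.685 to 0.700 in Col-0 (1). In mean RPM U1, U2, U4, U5, U6 and U12 were each lower in ncb-4, U6 at 412 against 471. The sparse U4atac and U6atac were higher. U12 (AT1G61275), a single expressed gene, had 32.4, 29.8 and 25.1 RPM in ncb-4, against 113, 77.3 and 80.8 RPM in Col-0 (1) (-1.66, SE 0.15, adjusted p 9.9e-10). It was called in every leave-out and with the stated library sizes (-1.11, adjusted p 3.5e-07). Of the 7 U2 genes tested, U2.7 (-1.24), U2.6 (-1.24), U2.2 (-1.11) and U2.3 (-1.07) were lower, with adjusted p from 6.7e-07 to 0.004. They form 1 sequence group, and none was called with the stated library sizes (log2 fold changes -0.69 to -0.52). U2.7 lost its call without Col-0 (1) replicate 3, U2.2 without ncb-4 replicate 3, and U2.3 without either Col-0 (1) replicate 1 or ncb-4 replicate 3. U2.6 (AT3G56705) had 28.5, 29 and 23.7 RPM in ncb-4, against 79.8, 50.3 and 58.1 RPM in Col-0 (1). U6 did not pass, at -0.28 to -0.17, and U1.5 had a log2 fold change of -0.71 (adjusted p 0.0002), under the threshold on size. Against the other mutants of set 1, 0 of 24 snRNA genes were called in ncb-4 by edgeR (7 at an unadjusted p under 0.05; 3.01% of all genes were higher and 2% lower), and U12 has the same direction in upf3-1 (-1.49), with the same Col-0 (1) libraries.

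U6 fell in lsm1a lsm1b. All 5 U6 genes with reads enough to test were called lower, and they were the only snRNA genes called there, 5 lower and 0 higher of 24 (5.43% of all genes tested were lower). U6-1 (AT3G14735) had 40.4, 44.4 and 44.4 RPM in lsm1a lsm1b, against 86.9, 97.7 and 112 RPM in Col-0 (1) (-1.21, SE 0.14, adjusted p 1.2e-06). U6.5 had 33.5, 31.3 and 34.4 RPM in lsm1a lsm1b, against 74, 86.3 and 103 RPM in Col-0 (1) (-1.42, SE 0.15, adjusted p 1.8e-07). U6.6 (-1.27), U6-29 (-1.26) and U6.4 (-1.21) gave nearly the same values, and these genes share sequence, so they are not 5 independent measurements.

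The 3 lsm1a lsm1b libraries lay close together in U6 while they spread in other snRNA genes: in replicate 2, U1.5 had 178 RPM against 52.4 and 64.4 RPM in the others, and U4.5 had 83 RPM against 15.9 and 22.8 RPM. All 5 were called under DESeq2 and in every leave-out. As a share of all reads on snRNA genes, which needs no scaling, U6 was 36.3, 18.3 and 35.9% in lsm1a lsm1b, against 38.6, 47.3 and 50.8% in Col-0 (1) and 44.6 to 63.4% in the other mutants of set 1. With the stated library sizes, under which the median gene moved to 0.66, the U6 genes stood at -0.71 to -0.51 (adjusted p 0.0019 to 0.021) and none was called, and 3 snRNA genes were higher. Against the other mutants of set 1 the U6 genes were lower by -1.28 to -1.05 (adjusted p 8.2e-13 to 1.8e-10; 2.6% of all genes were lower and 2.9% higher), and U4.5 was higher (1.43, adjusted p 0.031) through replicate 2. tRNA genes, also made by RNA polymerase III, had 43 calls lower and 4 higher of 272 in lsm1a lsm1b, with a median of -0.71, and green tissue markers summed to 342 to 457 RPM, against 713 to 750 RPM in Col-0 (1), from 4 of 5 markers with reads. The gap was mostly CAB1, which averaged 207 RPM in lsm1a lsm1b, against 508 RPM in Col-0 (1), while RBCS1A averaged 94.6 RPM in lsm1a lsm1b, against 100.1 RPM in Col-0 (1). The same sums were 421 to 445 RPM in upf1-5 and 325 to 400.5 RPM in upf3-1, where the U6 genes had median log2 fold changes of 0.02 and -0.23 and 0 were called. The part of the tRNA and green tissue genes in the U6 result was not tested.

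**Figure D5:**
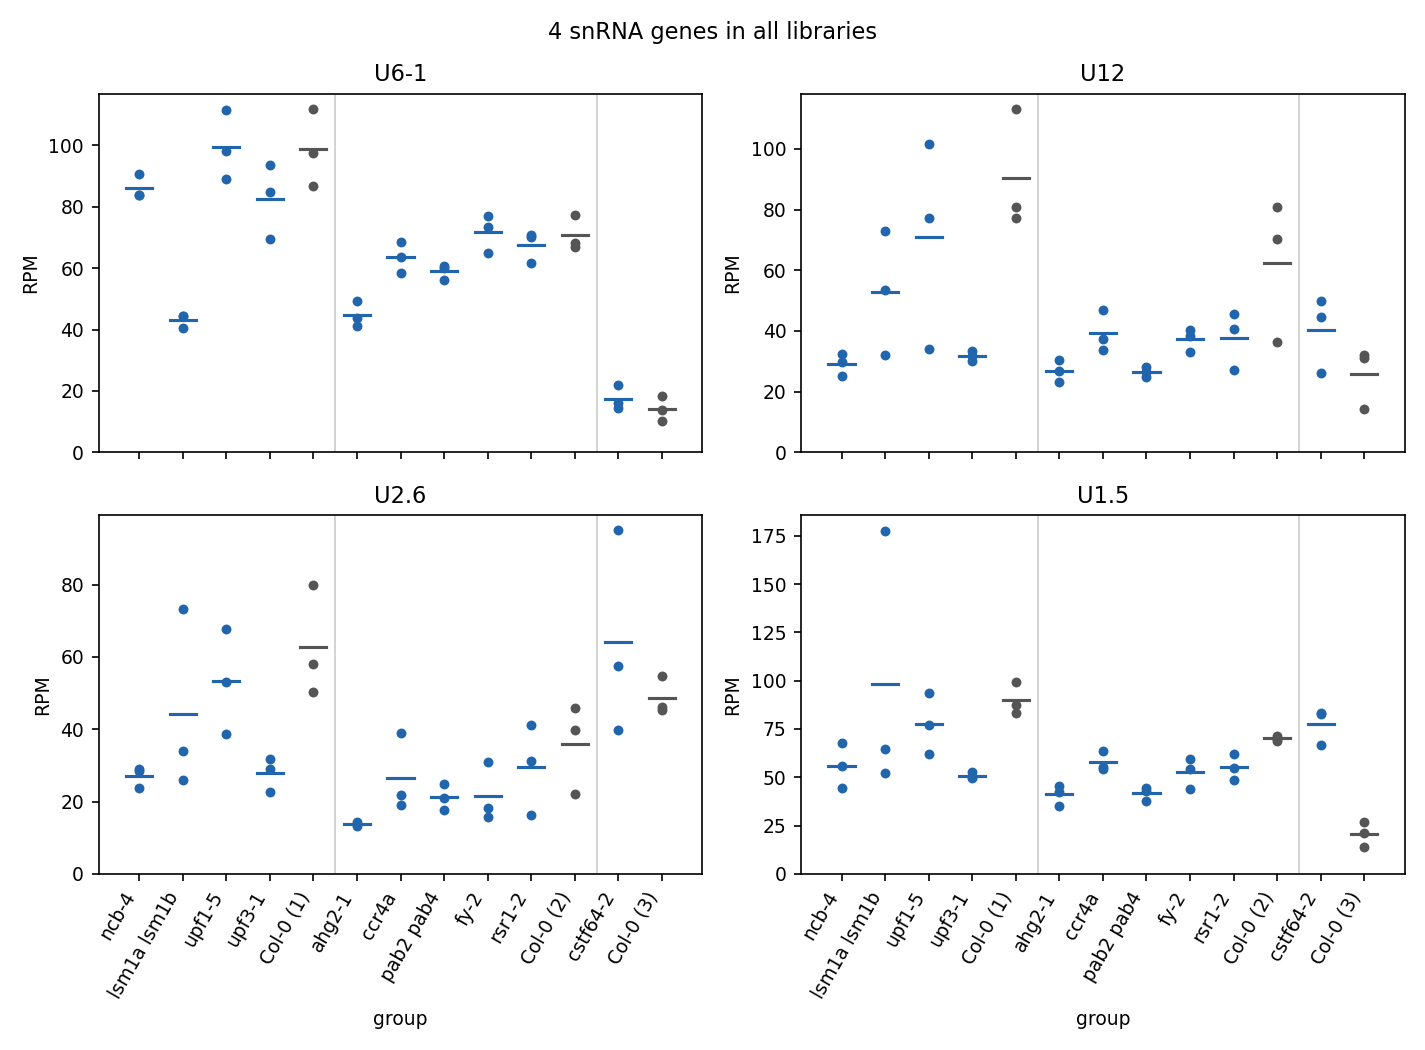
Read level (RPM, vertical axis from 0) on U6-1, U12, U2.6 and U1.5 in all 39 libraries, one point per library with the group mean as a bar, mutants in blue and Col-0 in grey, sets divided by grey lines. lsm1a lsm1b lies lowest in set 1 for U6-1 (40.4 to 44.4 RPM), and ncb-4 lies at 25.1 to 32.4 RPM for U12, against 77.3 to 113 RPM in Col-0 (1).

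In ahg2-1, 3 of 23 snRNA genes were called lower and 0 higher (5.22% of all genes tested were lower). U2.6 had 13.3, 13.7 and 14.3 RPM in ahg2-1, against 22.2, 39.7 and 45.9 RPM in Col-0 (2) (-1.40, SE 0.20, adjusted p 3.3e-05). U12 had 23.1, 30.5 and 26.8 RPM in ahg2-1, against 36.2, 70.3 and 81 RPM in Col-0 (2) (-1.24, SE 0.28, adjusted p 0.015), and lost its call without Col-0 (2) replicate 2 or ahg2-1 replicate 3. U2.4 was also lower (-1.16). The U6 genes had log2 fold changes of -0.68 to -0.63, under the threshold on size. Of the 23 snRNA genes tested in both ncb-4 and ahg2-1, 5 were called lower in ncb-4 and 3 in ahg2-1. ncb-4 and ahg2-1 shared U12 and U2.6 as calls, 40% of those 5 and 66.7% of those 3, against separate Col-0 libraries. The size of this overlap was not tested. U12 and U2.6 were also called lower in upf3-1, and U12 in pab2 pab4, so these calls were not particular to ncb-4 and ahg2-1. Against the other mutants of set 2, 0 of 23 snRNA genes were called in ahg2-1 by edgeR (9 at an unadjusted p under 0.05; 1.88% of all genes were higher and 1.93% lower).

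Outside the mutants above, snRNA calls were few except in upf3-1. That mutant had as many called lower as ncb-4, in 4 sequence groups against 2 in ncb-4. upf3-1 had 5 lower of 23 (7.69% of all genes tested were lower), among them U12 (-1.49, adjusted p 2.8e-09), U4.2 (-1.24, adjusted p 0.045) and U2.6 (-1.15, adjusted p 1.5e-06), but 0 with the stated library sizes. In each of upf1-5 (U2.14, -1.20), pab2 pab4 (U12, -1.28, adjusted p 0.016) and rsr1-2 (U4atac, -1.0, adjusted p 0.031) 1 of 23 was lower, where 3.83, 4.61 and 1.55% of all genes were lower. The call in rsr1-2 held in 1 of 6 leave-outs. ccr4a and fy-2 had 0 in edgeR and DESeq2 (6 and 10 of 23 at an unadjusted p under 0.05), as did Col-0 (2) against Col-0 (1) (4 of 23). In cstf64-2, 2 of 20 snRNA genes were called higher and 0 lower, both of them U1, and with 13.5% of all genes called higher there this count was near the background. U1.5 had 66.6, 83 and 83 RPM in cstf64-2, against 26.7, 21.1 and 13.7 RPM in Col-0 (3) (1.91, SE 0.19, adjusted p 3.9e-06). U1.10 had 33.3, 50.3 and 42.8 RPM in cstf64-2, against 17.1, 14.3 and 8.61 RPM in Col-0 (3) (1.65, SE 0.24, adjusted p 7.3e-05). Both held in every leave-out and with the stated library sizes. U1.10 lies fully in exons of a gene on the other strand, and without the strand setting its reads cannot be assigned to it alone.

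Checks on the samples bore on these results only in part. Reads on the mutated genes were too few to check the labels: COILIN had 5, 5 and 7 reads in ncb-4, against 0, 0 and 1 in Col-0 (1), LSM1A had 0, 0 and 0 in lsm1a lsm1b, against 4, 0 and 1 in Col-0 (1), LSM1B had 1, 3 and 1 in lsm1a lsm1b, against 0, 3 and 1 in Col-0 (1), and AHG2 had 1, 0 and 2 in ahg2-1, against 1, 1 and 2 in Col-0 (2). Root markers summed to 9.10 to 12.6 RPM in ncb-4, against 5.43 to 6.27 RPM in Col-0 (1), and to 9.11 to 12 RPM in ahg2-1, against 3.60 to 7.80 RPM in Col-0 (2), from 3 of 3 markers with reads in both sets. BGLU21 and BGLU22 carried these sums, while PER57 averaged 0.956 RPM in ncb-4, against 1.5 RPM in Col-0 (1), and 1.44 RPM in ahg2-1, against 1.24 RPM in Col-0 (2). In pab2 pab4, whose snoRNA median was close to theirs, the root markers summed to 4.63 to 5.90 RPM, within the range of Col-0 (2). The part of these markers in the snoRNA results was not tested. Of 46 genes for snoRNP, Cajal body, LSM and 3′ trimming proteins, 6 to 10 were testable per mutant. NUC1, a nucleolin, was lower in ncb-4 (-1.0, edgeR adjusted p 0.021), 1 of 7 tested, where 7.28% of all genes were lower. NOP56, a box C/D core protein, was higher in upf1-5 (1.57, edgeR adjusted p 0.044), 1 of 9, where 1.66% of all genes were higher. In cstf64-2 6 of 10 were higher, AHG2 by 4.72 and the pseudouridine synthase CBF5 by 2.78, where 13.5% of all genes were higher. A gene with reads in cstf64-2 alone can pass the filter. These are small RNA reads on protein-coding genes and do not measure their mRNA. In the other comparisons with Col-0, 0 were called.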

How the data were processed

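Small RNAs from 39 Arabidopsis libraries (3 per group, 13 groups) were counted on genes. Per the study's methods, reads of at least 15 bases were mapped by the authors with Bowtie 1.0.0, without mismatches and at up to 10 places, to TAIR10 after cutadapt 1.9. The authors deposited raw read counts per Araport11 gene (HTSeq 0.6.0). Which strand setting the files hold is not given in the sources used here. Near-identical genes had like counts in sets 1 and 2 but not in set 3, and how set 3 was counted differently is not given, so set 3 entered no fit with another set. The 5 summary lines of the counter in each file name no gene, held 59.5 to 79.7% of its total and were left out. Libraries held 2015212 to 9151932 counts on genes.

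Counts were tested with edgeR 4.0.16 (quasi-likelihood F test, robust, TMM factors, filterByExpr) in R 4.3.3, each mutant against the Col-0 of its set, and p-values were adjusted by Benjamini-Hochberg across the whole table. Calls needed an adjusted p below 0.05 with a log2 fold change beyond 1 in either direction. RPM are reads per 1000000 reads on genes after TMM scaling. Alternatives were DESeq2 1.42.0, DESeq2 size factors, the library sizes stated by the study, other filters, a replicate block, all groups of a set in 1 fit, the Col-0 of the other set, genes with identical counts kept as 1, and each library left out. On data simulated for each Col-0 group (6867, 7272 and 6934 genes) the test recovered 200 of 200 genes with a mean count of at least 50 changed 4-fold, with 3, 5 and 4 false calls. This does not measure recovery of sparser genes or smaller changes. The snoRNA genes tested had a median mean count of 39 in ncb-4 and 38 in ahg2-1.

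Members are genes typed as snoRNA or snRNA in the TAIR10.1 RefSeq annotation. Named are, for ncb-4, lsm1a lsm1b and ahg2-1, all members called or, over 12 in a class, the 12 with the largest fold changes among called members with separate groups; for other mutants the 3 largest; and the 5 most abundant per class. Members and lists were chosen with earlier results of these data known. The reads carry no molecular identifiers, and the libraries are biological triplicates per the study. The p-values set each difference between groups against the variation between libraries, with information on that variation shared across genes.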

Additional observations from a re-analysis of the deposited data

How the results depend on the processing

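With the library sizes stated by the study in place of TMM, called snoRNA genes numbered 6 in ncb-4, 23 in lsm1a lsm1b, 2 in upf1-5, 13 in upf3-1 (12 higher and 1 lower, with 1 of its 10 calls kept), 12 in ahg2-1, 1 in ccr4a, 5 in pab2 pab4, 2 in rsr1-2, 11 in cstf64-2 and 9 in lsm1a lsm1b against the other mutants, and called snRNA genes 1 in ncb-4, 3 in lsm1a lsm1b, 0 in upf1-5, upf3-1, pab2 pab4 and rsr1-2, 1 between the Col-0 groups and 4 in lsm1a lsm1b against the other mutants. With DESeq2 size factors snoRNA calls were 3 in lsm1a lsm1b, 11 in pab2 pab4 and 7 in cstf64-2, and snRNA calls 3 in upf3-1 and 0 in rsr1-2. The DESeq2 test gave 3 snoRNA calls in lsm1a lsm1b, 18 in ahg2-1, 8 in pab2 pab4, 0 in fy-2, 3 in rsr1-2 and 2 in cstf64-2, and snRNA calls 0 in upf1-5, 3 in upf3-1 and 0 in rsr1-2. With all groups of a set in 1 fit, snRNA calls were 2 in ncb-4 and 0 in rsr1-2. Without the filter snoRNA calls were 12 in lsm1a lsm1b, 11 in cstf64-2, 11 between the Col-0 groups and 14 in lsm1a lsm1b against the other mutants, and snRNA calls 0 in upf1-5, 3 in upf3-1 and 0 in rsr1-2. With the Col-0 of the other set, snoRNA calls were 19 in lsm1a lsm1b, 18 in upf1-5, 46 in ahg2-1, 23 in ccr4a, 40 in pab2 pab4, 22 in fy-2 and 27 in rsr1-2, snRNA calls 3 in ncb-4, 0 in upf1-5, 1 in upf3-1, 9 in ahg2-1, 3 in ccr4a, 6 in pab2 pab4 and 2 in rsr1-2, and AtsnoR23-1 turned to 0.17 in ncb-4 and 0.35 in upf3-1. The shares of all genes called in these settings are not given here, so the counts show only how far the calls depend on processing. The cause of these changes was not tested.

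Leaving out 1 library at a time gave, for snoRNA and snRNA genes, 28 to 54 and 3 to 6 calls in ncb-4, 4 to 20 and 5 to 8 in lsm1a lsm1b, 0 to 3 and 0 to 1 in upf1-5, 8 to 24 and 3 to 5 in upf3-1, 17 to 48 and 2 to 5 in ahg2-1, 1 to 10 and 0 to 1 in ccr4a, 8 to 36 and 0 to 5 in pab2 pab4, 0 to 10 and 0 to 3 in fy-2, 4 to 23 and 0 to 1 in rsr1-2, 6 to 10 and 2 to 2 in cstf64-2, and 8 to 22 and 0 to 1 between the Col-0 groups.

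Replicate numbers did not pair the samples: in 0 comparisons did every same-numbered pair correlate above 0.1. With the replicate block snoRNA calls were 41 in ncb-4, 25 in ahg2-1 and 5 in ccr4a.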
